A study of Mus musculus with 2 samples.

Results

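The proteasome is the large protease that degrades proteins marked with ubiquitin. This report describes the mouse genes named Psma, Psmb, Psmc, Psmd, Psme, Psmf or Psmg with a number, pseudogenes left out, in the gastrocnemius, the large calf muscle. The annotation holds 50 such genes, and 47 of them had reads in both libraries, out of 11565 annotated genes with reads in both. The other 3, the testis alpha subunit gene Psma8, the thymus beta subunit gene Psmb11 and the activator gene copy Psme2b, had 0 reads in both. A count of 0 allows up to 3 counts, which is 2.71 counts per 1000000 reads of annotated genes (CPM) in replicate 1 and 2.14 CPM in replicate 2. One member by name, Psmc3ip, encodes a protein of meiotic recombination that is not a proteasome subunit, and it had 1 and 2 reads.

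The tissue came from male B6CASTF1/J mice aged 2 months, which are first-generation hybrids of C57BL/6J and CAST/EiJ. No agent or engineered allele is named in the labels. There was 1 group of 2 libraries, each from 2 µg of RNA, replicate 1 from the male numbered 03 and replicate 2 from the male numbered 04, with the same donor identifier on both. With no second group there was no comparison between conditions and no p-value, and the spread between the libraries may be technical. Reads of both parental alleles were summed. Reads assigned to annotated genes numbered 1107128 in replicate 1 and 1402875 in replicate 2, and the spike-in RNAs took 4.23% and 2.13% of all reads. The 5 skeletal muscle markers Ckm, Acta1, Myh4, Tnnc2 and Atp2a1 summed to 326598 and 302567 CPM, markers of the labelled tissue, and the thymus marker Foxn1 had 0 reads. Each long read was counted as 1 cDNA molecule, so reads were not divided by transcript length when levels of different genes were set side by side. Truncated molecules also count as 1 read, and intervals given with shares cover counting error only.

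The 20S core is a barrel of stacked rings. The outer rings of alpha subunits gate the entry, and the inner rings of beta subunits hold the catalytic sites. The 19S cap recognises ubiquitin chains, removes them, unfolds the substrate with a ring of ATPases and threads it into the barrel. In cells exposed to interferon, and in immune cells, the catalytic subunits Psmb5, Psmb6 and Psmb7 can be replaced by Psmb8, Psmb9 and Psmb10, which gives the immunoproteasome. In muscle, the ubiquitin-proteasome system takes part in the turnover of contractile proteins and in atrophy.

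The 47 genes together took 5777 reads in replicate 1 and 6548 in replicate 2, which is 0.522% and 0.467% of the reads of annotated genes. Their summed level was 5218 and 4668 CPM, with a mean of 4943 ± 389 CPM (SD, n = 2). The 31 genes of the 20S core and 19S cap held 95.5% and 95.1% of those reads. Their mean levels lay between 49.8 CPM for Psmd14 and 407 CPM for Psmd2, an 8.16-fold range, and every one of them lay above the highest of the other 16 members, Psme4 at 32.9 CPM. All 31 also lay above 11.2 CPM, the median of all genes with reads in both libraries, and so did 10 of the other 16. Among all genes ranked by mean level, the 31 subunit genes took places 244 to 2147, and the other members places 2990 to 11098. Across the 31 genes the order of levels in one library was close to that in the other (Spearman's rho 0.965, a description across genes that share their libraries). The level was only weakly related to the length of the dominant transcript, which ran from 766 to 3112 nt (rho 0.104 over the same 31 genes).

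**Figure D1:**
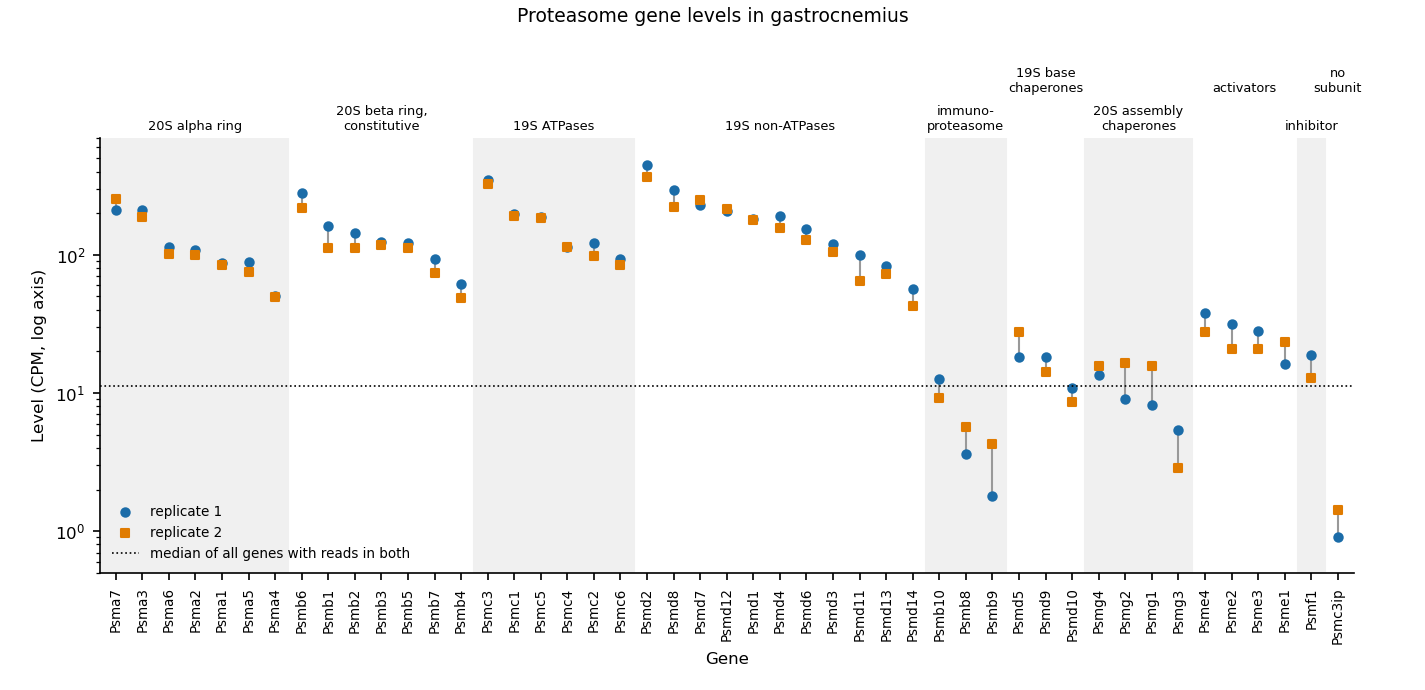
Level of each of the 47 genes in CPM on a log axis, grouped by role, with a circle for replicate 1 and a square for replicate 2, and a dotted line at 11.2 CPM, the median of all genes with reads in both libraries. The 31 genes of the 4 groups on the left, the 20S and 19S subunits, all lie above that line and above the other 16 members by mean level.

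The alpha ring genes, of which 7 were detected, summed to 860 ± 13.7 CPM (870 and 850 CPM). Psma7, which encodes subunit alpha 4, was the highest at 211 CPM in replicate 1 and 252 CPM in replicate 2. Psma3, which encodes subunit alpha 7, followed at 211 and 189 CPM, and Psma6, which encodes subunit alpha 1, at 115 and 101 CPM. Psma4 was the lowest at 50.6 and 49.2 CPM, 4.64-fold below Psma7 by mean. The order of Psma7 and Psma3 was clear in replicate 2 alone, where they stood 353 to 265 in reads, since replicate 1 gave 234 and 233 reads. Without a truncated model of Psma7, described with the transcript models, Psma7 had 158 and 191 reads, below Psma3 at 222 and 230 reads without its genomic class, so the order turned in both libraries.

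The constitutive beta ring genes, all 7 detected, summed to 888 ± 139 CPM, 986 in replicate 1 and 791 in replicate 2. Psmb6, the gene of the caspase-like catalytic subunit beta 1, was the highest at 280 and 217 CPM. Psmb1, a structural subunit of the ring, had 163 and 111 CPM, and Psmb2, also structural, had 144 and 111 CPM. Every one of the 7 had a lower level in replicate 2, down to Psmb4 at 61.4 and 48.5 CPM, the lowest of the ring. The mean summed levels of the alpha and beta rings, whose proteins occur in equal number in the particle, differed by less than the SD of the beta ring. Their order turned between the libraries. With annotated transcripts only, the sums were 1051 CPM for the alpha ring and 1280 CPM for the beta ring, farther apart than that SD.

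The catalytic genes of the constitutive core exceeded their interferon-inducible paralogs in all 3 pairs and in both libraries. Psmb5, the gene of the chymotrypsin-like subunit, had 134 and 157 reads, and its paralog Psmb8 had 4 and 8. The log2 ratio was 4.56 ± 0.49 (SD, n = 2), a 23.5-fold difference, and Psmb8 held 2.90% (Wilson 95% interval 1.13 to 7.22) and 4.85% (2.48 to 9.28) of the reads of the pair. Psmb6 had 310 and 305 reads against 2 and 6 for Psmb9. That pair was the most uneven by mean, with a log2 ratio of 6.26 ± 0.99 and a Psmb9 share of 0.641% (0.176 to 2.31) and 1.93% (0.887 to 4.14). Its place rests on few reads, and these intervals overlap those of the Psmb8 share in both libraries. Psmb7, the gene of the trypsin-like subunit, had 103 reads in each library against 14 and 13 for Psmb10. Its log2 ratio was 2.89 ± 0.07 and the Psmb10 share 11.97% (7.26 to 19.1) and 11.2% (6.67 to 18.2). By all reads of the gene, Psmb10 was the highest of the 3 inducible genes in both libraries. In each pair the mean log2 ratio lay more than 2 SD from 0.

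Of all reads of the 6 catalytic genes, the 3 immunoproteasome genes held 3.53% (2.30 to 5.39) in replicate 1 and 4.56% (3.15 to 6.55) in replicate 2. Their summed level was 18.7 ± 0.84 CPM. Part of these reads came from models with no full coding sequence: the complete coding transcript Psmb10-201 had 9 of the 14 and 5 of the 13 reads of its gene, while the retained-intron transcripts Psmb10-205 and Psmb10-207 had 3 and 1 in replicate 1 and 2 and 3 in replicate 2. Psmb8-201 had 4 and 3 reads, and 4 of the 8 Psmb8 reads of replicate 2 were 1-exon reads of the genomic class. All reads of Psmb9 were of the coding transcript Psmb9-204, which with 6 reads in replicate 2 stood above the 5 of Psmb10-201 there. With protein-coding annotated transcripts only, the immunoproteasome share had a mean of 2.88% in place of 4.04%.

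**Figure D2:**
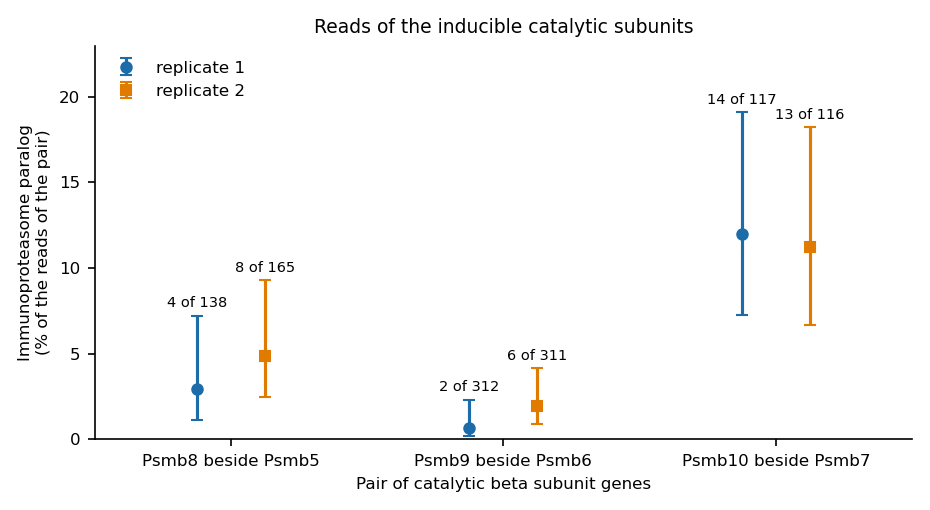
Share of each immunoproteasome paralog in the reads of its catalytic pair in percent, with Wilson 95% intervals and the reads behind each share, for replicate 1 (circles) and replicate 2 (squares). Psmb10 lies at 11.97% and 11.2%, above the intervals of Psmb9 in both libraries.

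Markers of leukocytes were also read, with a summed level above that of Psmb8, Psmb9 and Psmb10 together (18.06 and 19.25 CPM). Of 12 such genes, 11 had reads, with a sum of 66 reads in replicate 1 and 84 in replicate 2, or 59.6 and 59.9 CPM. Lyz2 had 26 and 35 reads and Cd74 had 13 and 21, while the pan-leukocyte marker Ptprc had 0 and 2 and Cd68 had 0 in both. The part of such cells in the reads of Psmb8, Psmb9 and Psmb10 was not tested, and in bulk tissue fewer cells of a type and less RNA per cell cannot be told apart. Among 10 genes of antigen presentation and interferon response, all with reads, H2-D1 led with 80 and 128 reads, followed by Tapbp with 43 and 67 and B2m with 21 and 34. Tap1, the peptide transporter gene that lies between Psmb9 and Psmb8 on chromosome 17, had 0 and 5 reads. In the mm10 annotation Psmb9 (34181987 to 34187764, minus strand) and Tap1 overlap by 212 bases, and Psmb8 (34197721 to 34201454, plus strand) begins 495 bases after Tap1, so reads near the overlap depend on the strand assigned to them.

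The 6 ATPase genes of the 19S base summed to 1031 ± 46.7 CPM, 1064 in replicate 1 and 998 in replicate 2. Psmc3 (Rpt5) stood first with 387 and 460 reads, 349.6 and 328 CPM. Psmc1 (Rpt2) had 196 and 190 CPM and Psmc5 (Rpt6) had 189 and 183 CPM, levels closer to each other than the 3.79-fold range of the group. Psmc6 (Rpt4) was the lowest at 93.9 and 84.8 CPM. The subunits form 1 ring in the particle, and their reads did not stand in equal numbers.

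The 11 non-ATPase subunit genes of the cap summed to 1932 ± 185 CPM. Psmd2 (Rpn1), a scaffold that docks ubiquitin receptors, was the highest of all members with 496 and 512 reads, 448 and 365 CPM. Psmd8 (Rpn12) had 324 and 312 reads, 293 and 222 CPM, and Psmd7 (Rpn8), the partner of the cap's deubiquitinase, had 254 and 352 reads, 229 and 251 CPM. That deubiquitinase itself, Psmd14 (Rpn11), which removes ubiquitin chains before degradation, had 56.9 and 42.8 CPM. By mean it was level with Psma4 at the low end of the 31 subunit genes, and Psma4 was the lower of the pair in replicate 1. Psmd14 had 63 and 60 reads where Psmd7, the subunit it pairs with, had 254 and 352.

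Other subunits and partners that the name rule does not reach lay in the range of the members. The cap's ubiquitin receptor Adrm1 had 202 and 206 reads, the small cap subunit Sem1 184 and 238, and the core maturation factor Pomp 161 and 236. Ecpas, which binds the particle, had 175 and 320 reads, and of the 7 listed partners Paaf1 was listed with no read. Among 4 regulators of proteasome gene transcription, Nfe2l1, the transcription factor that raises subunit genes when the protease is impaired, led with 288 and 526 reads, and Ngly1, which processes it, had 92 and 138. The ubiquitin gene Ubb had 2682 and 2820 reads.

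The remaining members were each expressed at a lower level. Base assembly chaperones summed to 48.8 ± 2.58 CPM, with Psmd5 at 20 and 39 reads, Psmd9 at 20 and 20 and Psmd10 at 12 and 12. The 4 activator genes detected summed to 103 ± 15.0 CPM. Psme4, which encodes the large activator PA200, had 42 and 39 reads, Psme2 had 35 and 29, and Psme3, which encodes PA28 gamma, had 31 and 29. Psme1, which with Psme2 forms the interferon-inducible PA28 ring, had 18 and 33 reads. The order of Psme1 and Psme2 turned between the libraries, so the difference did not exceed the spread. Psmf1, the gene of the inhibitor PI31, had 21 and 18 reads.

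The 20S assembly chaperones summed to 43.4 ± 10.2 CPM, with 40 reads in replicate 1 and 71 in replicate 2. Psmg4 had 15 and 22 reads, Psmg2 10 and 23, Psmg1 9 and 22, and Psmg3 6 and 4. Psmg1 and Psmg2, whose proteins work as a dimer, were both lower in replicate 1, with exact 95% intervals of the fold that spanned 1 (0.854 to 4.76 for Psmg1 and 0.831 to 4.27 for Psmg2).

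Between the libraries the members differed by more than sampling noise, with a chi-square of 2.57 per degree of freedom over 43 members with at least 5 reads in each, beside 6.47 over 7881 genes. A minimum of 50 reads over both libraries was met by 36 members, and 0 of these were more than 2-fold apart, beside 195 of 4294 genes (4.54%), of which 4.01% of the genes tested were higher in replicate 2 and 0.536% higher in replicate 1. At that background a count of 0 among 36 genes is not a result about the members. As log2 of the level in replicate 2 over that in replicate 1, the median was -0.19 over the 45 members with at least 10 summed reads and 0.12 over all 8626 such genes. Replicate 2 was the higher one for 10 of those 45 members (22.2%) and for 59.8% of all such genes. Dominant transcripts of 1 to 2 kb, the commonest length class of the members, had a median of -0.18 among members and 0.01 among all genes, so a difference in this direction was also present within the class. The exact 95% interval of the fold lay below 1 for 7 of the 36 members with at least 50 summed reads, Psmd2, Psmd8, Psmd4, Psmd11, Psmb6, Psmb1 and Psmb2, beside 6.99% of the 4294 genes tested. It lay above 1 for 1 of the 36, Psma7, beside 18.5% of those genes. Scaling by median-ratio size factors, which lowers every log2 ratio by 0.10, gave 10 of the 36 below 1, beside 11.2% of genes, and 0 above, beside 13.5%, with Psma7 at 1.11 (0.937 to 1.31). TMM factors also gave 10 below 1 and 0 above, beside 10.4% and 14.2% of genes.

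Among the members with at least 50 reads that were farthest apart was Psmd11 (Rpn6), with 110 and 91 reads or 99.4 and 64.9 CPM. Its fold, replicate 2 over replicate 1, was 0.653 (0.489 to 0.870). Psmd5 lay in the other direction with a fold of 1.54 (0.876 to 2.79) on 20 and 39 reads. Psmb1 had a fold of 0.684 (0.548 to 0.852) on 180 and 156 reads. Each is 1 library against 1 other, so these folds carry no replicate check, and the intervals hold counting error only.

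**Figure D3:**
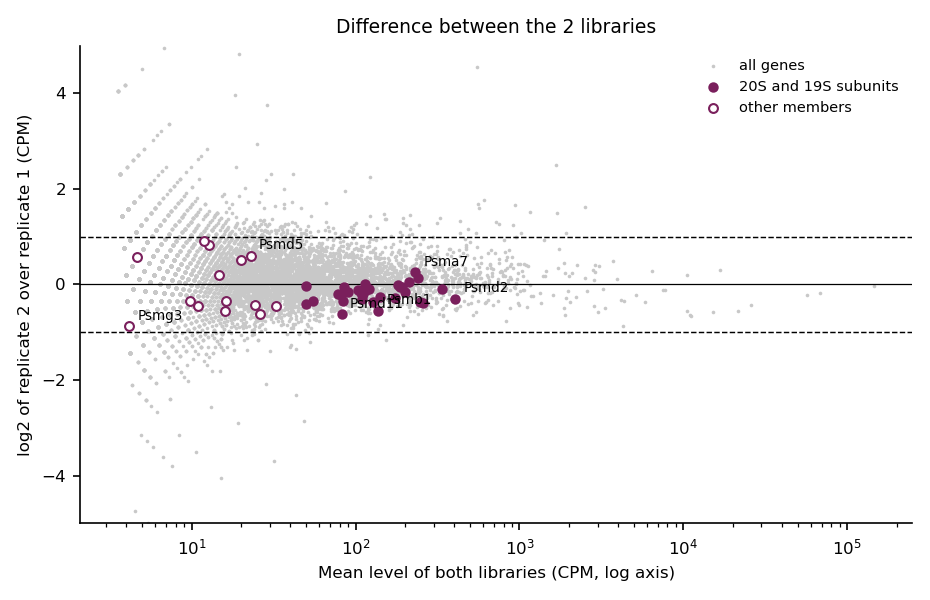
Log2 ratio of replicate 2 over replicate 1 against the mean level in CPM (log axis) for genes with at least 10 summed reads, with all genes in grey, the 20S and 19S subunit genes as filled points and other members as open points, and dashed lines at a 2-fold difference. All plotted members lie between the dashed lines, and 7 other genes lie outside the vertical range of ±5.

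Most reads of the members came from annotated transcripts. The share was 87.4% (86.6 to 88.3) in replicate 1 and 86.0% (85.1 to 86.8) in replicate 2, against 66.2% and 65.5% over all genes. These shares, and those by length class, pool reads, so the most abundant genes weigh most in the values over all genes. The 5 skeletal muscle markers alone had 361586 of 1107128 reads in replicate 1 and 424463 of 1402875 in replicate 2. The gap differed between length classes of the dominant transcript. At 1 to 2 kb (27 members) the share was 87.3% and 86.8% for members and 80.7% and 80.8% for all genes. Under 1 kb (8 members) it was 89.7% and 83.4% for members and 83.8% and 81.8% for all genes. At 2 to 4 kb (10 members) it was 88.2% and 87.6% for members and 53.4% and 53.6% for all genes. Over 4 kb (2 members) the members lay lower, at 40.3% and 51.3%, against 51.9% and 54.9% for all genes. Of all member reads, incomplete splice matches, models that hold part of an annotated chain of introns, took 9.30% and 9.88%. Models with an unannotated splice site took 1.85% and 2.18%, and new combinations of annotated sites 0.710% and 0.977%. Of 214 unannotated chains, 35 occurred in both libraries. A further 161 had a single read and so could not occur in both. No such count over all genes is given here, so these counts are not a result about the members.

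With reads of the genomic class left out, 35 members had 20 reads or more in both libraries, and the most read model was shared in all 35, against 3875 of 4111 genes (94.3%). It held a median of 91.1% and 90.2% of the reads of its gene outside the genomic class, against 81.8% and 82.2% over all genes. In 34 of the 35 that model was an annotated transcript, and the exception was Psmc2. Shares of annotated reads below 80% by mean were found in Psmc2, Psme4, Psma7, Psma4, Psmd1 and, at 79.98%, Psme3 among members with at least 50 summed reads.

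**Figure D4:**
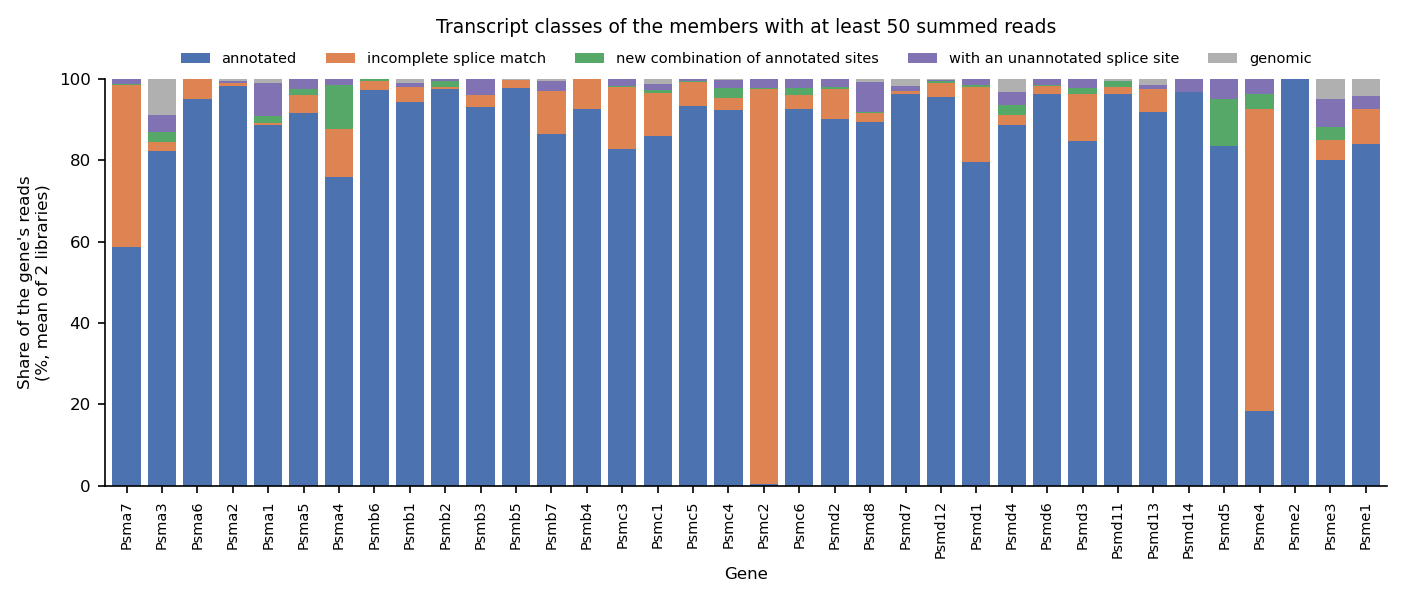
Mean share over the 2 libraries of each transcript class in the reads of the members with at least 50 summed reads, in percent, as stacked bars. Incomplete splice matches hold 97.1% of Psmc2, 74.3% of Psme4 and 39.8% of Psma7, while the annotated class fills most of the other bars.

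Psmc2 (Rpt1, chr5:21785283-21803787, plus strand) was read almost wholly through a model that lacks the first annotated intron. The annotated transcript Psmc2-201, with 13 exons, had 1 and 0 reads, and the 12-exon model that shares all introns from exon 2 on had 123 of 135 reads in replicate 1 and 128 of 138 in replicate 2, which is 91.1% (85.1 to 94.8) and 92.8% (87.2 to 96.0). Exon 2 begins at 21786650 and the annotated coding sequence at 21786689, so the coding sequence lies wholly within these 12 exons. The deposited model starts at 21786670 in replicate 1, inside exon 2, and at 21785283 in replicate 2, where its first exon spans intron 1, so the start of these molecules is uncertain. RefSeq lists starts at 21785275 and at 21786747, and the second lies past the first annotated coding base. A molecule that began there would not hold the whole annotated coding sequence. Just upstream of exon 2 the reference (GRCm38.p6) reads as follows over chr5:21786497-21786649, plus strand, shown because the deposited starts fall on either side of it, with the last 2 bases before exon 2 in capitals.

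Psmc2 upstream of exon 2: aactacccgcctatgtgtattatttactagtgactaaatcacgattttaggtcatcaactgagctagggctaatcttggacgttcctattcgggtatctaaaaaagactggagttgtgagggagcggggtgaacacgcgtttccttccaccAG

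Psma7 (chr2:180036374-180042433, minus strand) had a short model beside its full one. Psma7-201, with 7 exons and 914 nt, had 154 and 181 reads. A 4-exon model that begins in exon 4, holds 506 nt and lacks the first 348 of 744 coding nt had 76 and 162 reads. Its share of the gene was 32.5% (26.8 to 38.7) in replicate 1 and 45.9% (40.8 to 51.1) in replicate 2, intervals that do not overlap. Psma7 was the only member whose fold interval lay above 1 when scaled by reads of annotated genes. With median-ratio or TMM factors its interval spanned 1. With the 4-exon model left out, it had 143 and 136 CPM and so was no longer higher in replicate 2.

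Psmd4 (Rpn10, a ubiquitin receptor of the cap) was split between a pair of coding transcripts in steady proportion. Psmd4-202 had 115 reads in each library and Psmd4-201 had 73 and 76, so that Psmd4-202 held 61.2% (54.1 to 67.9) and 60.2% (53.1 to 66.9) of their sum. The transcripts end the same exon at different places, before introns chr3:95033765-95033917 and chr3:95033765-95033908, and Psmd4-201 has 9 coding nt, or 3 codons, more. Both GENCODE M21 transcripts are shown across this junction (chr3:95033735-95033947, minus strand), since the 9 bases in capitals are all that separates them here.

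Psmd4-201: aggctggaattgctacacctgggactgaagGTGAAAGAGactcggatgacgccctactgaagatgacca
Psmd4-202: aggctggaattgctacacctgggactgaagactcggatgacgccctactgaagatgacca

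Psmd8 (Rpn12) held the most read chain with an unannotated junction among all members. The 5-exon model had 17 and 24 reads, 5.25% (3.30 to 8.24) and 7.69% of the gene, beside Psmd8-202 with 292 and 274. It joins the end of exon 1 to a site 34 nt inside a later annotated exon (intron chr7:29177198-29180276, minus strand) and so leaves out 210 coding nt, which keeps the reading frame. The annotated sequence across the end of exon 1 and the sequence across the unannotated junction are set side by side, with the bases after the unannotated junction in capitals.

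Psmd8-202: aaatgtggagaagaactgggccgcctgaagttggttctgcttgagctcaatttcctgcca
Psmd8 5-exon model: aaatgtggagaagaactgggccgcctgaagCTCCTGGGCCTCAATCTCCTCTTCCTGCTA

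Psmd1 (Rpn2, a scaffold of the cap) had a 22-exon model that keeps the start of Psmd1-201 and stops early. It had 20 and 19 reads, 9.95% and 7.54% of the gene, against 152 and 209 for the 25-exon transcript. In both libraries it ended inside exon 22 and within the coding sequence.

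**Figure D5:**
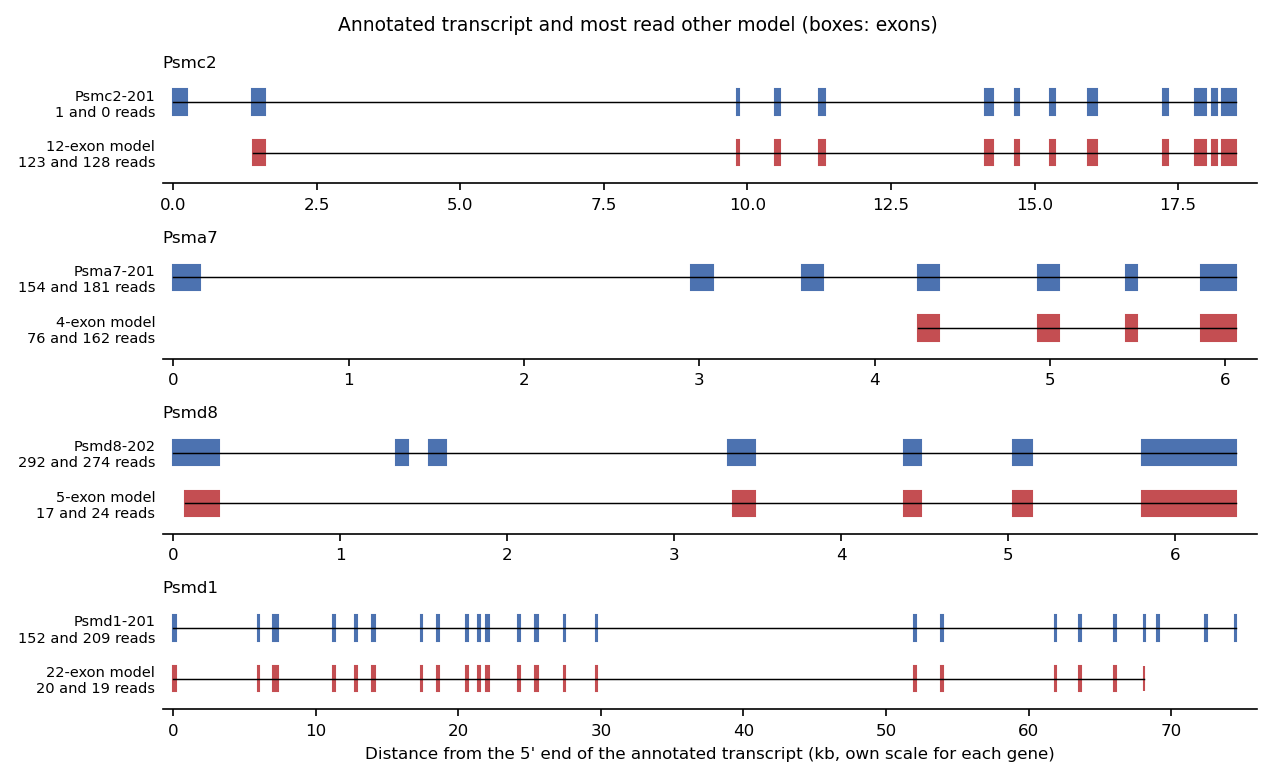
Exons (boxes) of the most read annotated transcript (blue) and of the most read other model (red) of Psmc2, Psma7, Psmd8 and Psmd1, by distance from the annotated 5′ end in kb, with reads in replicate 1 and replicate 2 at the left, drawn from the replicate 1 models. As deposited for replicate 1, the Psmc2 model lacks exon 1, the Psma7 model lacks exons 1 to 3, the Psmd8 model lacks exons 2 and 3 and the Psmd1 model stops in exon 22.

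Several other members carried a second model in both libraries. Psmb6-202, annotated as a retained-intron transcript, had 53 reads in replicate 1 and 25 in replicate 2, 17.1% (13.3 to 21.7) and 8.20% (5.61 to 11.8) of its gene, so its share was lower in replicate 2 beyond counting error, while Psmb6-201 had 246 and 274 reads. By CPM, the fold of replicate 2 over replicate 1 was 0.372 for Psmb6-202, 0.879 for Psmb6-201 and 0.7765 for the gene. The fold interval below 1 given for Psmb6 is that of all its reads, and none is given for Psmb6-201 alone. The 1-exon incomplete matches of Psmc3, pooled, had 49 and 64 reads, 12.7% and 13.9% of the gene. The model listed for them has 179 nt in each library. Psmd11-214, which keeps an intron of 115 nt that Psmd11-201 removes and has the same coding length of 1266 nt, had 12 and 9 reads. Psme4, whose transcript Psme4-201 has 47 exons, was read in full 9 and 6 times of 42 and 39, and the rest was mostly incomplete matches.

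Psma3 had 183 and 193 reads of the coding transcript Psma3-202. Its transcripts annotated as targets of nonsense-mediated decay, Psma3-201 and Psma3-206, summed to 18 and 13 reads, 7.73% and 4.91% of the gene. Reads of the genomic class, all of 1 exon, numbered 11 and 35. Their share was 4.72% (2.66 to 8.26) in replicate 1 and 13.2% (9.65 to 17.8) in replicate 2, intervals that do not overlap. The model listed for them, chr12:70995176-70995875 in replicate 1 and chr12:70994505-70995875 in replicate 2, lies within the last exon of Psma3-202. It spans no intron, so these reads do not show whether the RNA was spliced. A processed pseudogene, Gm13835, matches Psma3 at 100% identity over 685 nt and had 3 and 8 reads of its own, so reads of Psma3 and this copy may not be told apart. In all, 5 pseudogenes with at least 90% identity to a member over at least 200 nt had 6 and 14 reads. Other members lie over a gene with reads of its own: Psme1 overlaps Emc9 on the opposite strand, with 41 and 32 reads, Psmc3 overlaps Slc39a13 on the opposite strand, with 49 and 61, and Psma2 overlaps AW209491 on the same strand, with 27 and 39. The division of reads between such neighbours rests on the authors' assignment.

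Among unannotated chains with fewer reads, Psma4 had a 10-exon combination of annotated sites with 7 and 6 reads that adds an exon between chr9:54950904-54951343 and chr9:54951429-54952081. Psma1 had a chain with 4 and 9 reads whose intron, chr7:114274123-114274415, is 293 nt long in place of 288. Psmb3 had a 3-exon chain with 2 and 6 reads, Psmc4 a chain with 1 and 4 that keeps an intron of 142 nt, and Psmd5 a chain with 2 and 3. Psmb2 and Psmd3 each had a chain with 2 and 2 reads, Psmd7 one with 1 and 3 and Psma5 one with 1 and 2. Psmg4 was divided between Psmg4-202 with 11 and 17 reads and Psmg4-201, whose coding sequence is 123 nt shorter, with 4 and 5.

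RefSeq promoter windows, from 250 bases before to 50 after the start on GRCm38.p6, matched 40 of the 47 members by symbol with 43 windows. On both strands, 4 motifs were searched, none of which contains another: the core of ETS factor sites (CCGGAAG), the core of the antioxidant response element (TGACNNNGC), to which Nfe2l1 binds with its partners, the CCAAT box (CCAAT) and an interferon response core (GAAANNGAA). The ETS core was in 11 of 27 windows of the 20S and 19S subunit genes (40.7%), in 19.5% of windows of all genes with at least 50 summed reads and in 8.86% of all 32851 windows. The antioxidant response core was in 14.8% of the subunit windows, 15.1% of windows of genes with at least 50 summed reads and 12.4% of all windows, and the CCAAT box in 37.0% and 37.4%. The interferon core was in 14.8% of the subunit windows, 6.84% of windows of genes with at least 50 summed reads and 8.56% of all windows. It matched 7 members, Psmb3, Psmb4, Psmc2, Psmd4, Psmd9, Psmg4 and Psme1, and none of Psmb8, Psmb9 or Psmb10. A match is a string of letters and not a measured site. The ETS match with 16 bases on each side, in the orientation of the motif and with the motif in capitals, is shown for 4 subunit genes in which it lies upstream of the start and outside annotated exons, because it is the motif whose share differed most from all windows. The windows are chr16:20651610-20651648 for Psmd2, chr14:45329708-45329746 for Psmc6, chr3:95042717-95042755 for Psmd4 and chr12:55398677-55398715 for Psma6. The antioxidant response core of Psmc6, at chr14:45329581-45329621, is shown in the same way.

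Psmd2 ETS core: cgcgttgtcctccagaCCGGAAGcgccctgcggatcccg
Psmc6 ETS core: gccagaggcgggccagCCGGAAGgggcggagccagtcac
Psmd4 ETS core: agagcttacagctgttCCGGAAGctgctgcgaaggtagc
Psma6 ETS core: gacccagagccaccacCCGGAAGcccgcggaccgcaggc
Psmc6 antioxidant core: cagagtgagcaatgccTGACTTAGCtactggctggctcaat

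The ETS windows surround genes of different rank, from Psmd2, first of all members at 407 CPM, to Psmc6, the lowest of the ATPases at 89.4 CPM, and no relation between match and level was tested. The motif lies 26 bases before the RefSeq start in Psmd2, 100 in Psmc6, 125 in Psmd4 and 132 in Psma6.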

How the data were processed

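Long-read cDNA from 2 gastrocnemius libraries of 1 group was analysed. Per the file headers and the submitters' notes, the authors assigned reads on mm10 to GENCODE M21 transcripts or unannotated models with TALON, separately for each library, and deposited raw read counts per model with exon number, length and class, and the models' coordinates. Which aligner and versions were used is not given in the sources used here. Counts of models assigned to annotated genes were summed per gene and scaled to counts per 1000000 reads of annotated genes (CPM), spike-in reads left out. The number of columns not mapped to a sample was 0.

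Ratios use a prior count of 0.5, and a ratio exceeded the spread where both libraries had the same sign and the mean lay over 2 SD from 0. Folds over 2 were counted at 50 or more summed reads, medians at 10 or more and dominant models at 20 or more in each library. An unannotated model with introns was taken as shared where chromosome, strand and all its introns were identical. Unannotated models of 1 exon were pooled by gene and class, whatever their ends. Depth was 1107128 and 1402875 reads of annotated genes, so 3 counts, the floor, are 2.71 and 2.14 CPM. Wilson and exact 95% intervals cover counting error only and take reads as independent. The reads carry no molecular identifiers, so any copies of 1 molecule could not be told apart, and the intervals may be too narrow.

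Where both libraries had 5 reads or more, the chi-square of the 2 columns over all genes was 6.47 per degree of freedom, so they were kept as separate libraries. Members and lists were chosen with earlier results of these data known. The rule for named genes took the catalytic pairs, the 3 leading and the last member of each role group, members over 2-fold apart or under 10 summed reads, dominant models that are unannotated, and the 10 most read unannotated chains in both libraries. Other models and motif windows were picked after their values were seen. Promoters were RefSeq windows of GRCm38.p6, and similar pseudogenes were found with BLAST 2.17.0. Python 3.11.15, pandas 2.3.3, SciPy 1.17.1 and, for an alternative scaling, edgeR 4.0.16 in R 4.3.3 were used, and the counting steps were tested on simulated data. Alternatives were other scalings, read classes, prior counts and minimums, and single libraries. A result that needs a withheld item is not reported here.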

Additional observations from a re-analysis of the deposited data

Results flagged for a closer look

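Reads of unannotated models on the strand opposite to a member belong to no value of the report. Over Psmd11 there were 23 such reads in the 2 libraries, 11 in replicate 1 and 12 in replicate 2, and over Psme4 there were 18, with 8 and 10. Both sums lie above the 3 counts that a count of 0 allows. Opposite-strand reads of this kind lay over 15 members, 5 of them in both libraries, and summed to 30 reads in replicate 1 and 51 in replicate 2. No such count over all genes is given here, so these counts are not a result about the members.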

How the results depend on the processing

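No paired analysis was possible because there was only 1 group. Of 110 alternative values of 18 results, 44 could not have left the spread: 30 single-library values, which by construction lie within 1 SD of a mean of 2 values or have no call, and 14 with pseudogenes named -ps added, which had 0 reads. Of the other 66, 53 moved by less than the spread between the libraries or kept their call, and no direction reversed. With annotated transcripts only, where the total also holds annotated transcripts alone, the summed level was 6510 CPM. The same setting gave 1051 CPM for the alpha ring, 1280 for the constitutive beta ring, 25.1 for the immunoproteasome genes, 1228 for the ATPases, 2668 for the non-ATPases, 66.8 for the base chaperones, 22.2 for the inhibitor and 63.6 for the 20S assembly chaperones. Without the genomic class the immunoproteasome genes had 17.7 CPM. With no minimum of reads, 1 of 47 members was over 2-fold apart, Psmb9 with 2 and 6 reads, beside 5243 of 14675 genes. All 3 pair ratios kept their sign and call under both read-class settings and both prior counts, and their sign in each single library, where no call can be made. The median log2 ratio of the members stayed between -0.30 and -0.18. Alternatives chosen after seeing the data were protein-coding transcripts only, which gave an immunoproteasome share of 2.88%, leaving out Psmc2, which gave an annotated share of 88.7%, adding the reads of similar pseudogenes, and rescaled fold intervals. Single libraries gave summed levels of 4668 to 5218 CPM, immunoproteasome shares of 3.53% to 4.56% and annotated shares of 86.0% to 87.4%. Depth limits the low members: Psmb8, Psmb9, Psmg3 and Psmc3ip had at most 8 reads in a library, so their order was not resolved.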
